A study of Homo sapiens with 3 samples.

Results

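The 10 genes described here encode subunits of the transcription factor NF-kB and genes that NF-kB itself switches on: NFKB1, NFKB2, RELA, RELB, NFKBIA, NFKBIE, BCL3, TNFAIP3, BIRC3 and BCL2A1. They were taken by symbol from a deposited expression table of 19049 genes, and all 10 were found in it. The RNA came from MDA-MB-231, a human cell line from a breast cancer of the basal type, grown in serum. In every group the cells' own KAP1 was depleted with a short hairpin RNA, per the titles, and 1 form of KAP1 was put back. KAP1, the product of TRIM28, is a corepressor that zinc finger proteins bring to chromatin. The wt group received the wild-type protein. The S473A group received KAP1 with the serine named in the label changed to alanine, which cannot be phosphorylated, and the S473D group KAP1 with aspartate there, a charged residue used to imitate phosphoserine. The vector, the number of clones and the amount of protein are not stated in the labels. Each form gave 1 library, so there is no replicate error, no p-value is given, and every difference describes a pair of libraries.

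NF-kB is a family of dimers built from RelA, RelB, c-Rel and the p50 and p52 proteins, which are cut from the precursors encoded by NFKB1 and NFKB2. In resting cells IkB proteins such as the products of NFKBIA and NFKBIE hold the dimers in the cytoplasm. Signals from cytokine and innate immune receptors activate a kinase complex that marks IkB for destruction, and the freed dimers move to the nucleus. Many of the genes that they then induce end the response or protect the cell, and such genes make up most of the list. MDA-MB-231 cells are known for NF-kB activity without added cytokine.

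Levels are RPKM, reads scaled to the length of the gene model and the depth of the library, which allows genes to be compared within a library. Intervals are exact 95% intervals for counting error only, and they leave out the spread between cultures. They were made from reference transcript lengths and depths estimated at 25500000 (wt), 29200000 (S473A) and 23700000 (S473D) reads. The lengths behind the deposited values are not known, so the interval widths are approximate. Differences were taken between values of log2(RPKM + 1), so that those of weakly expressed genes come out too small, and were set beside the 11579 genes whose mean reached 1 RPKM, a filter that all 10 genes passed. The median difference of those genes was -0.10 for S473D minus wt and 0.00 for S473A minus wt. TRIM28 stood at 28.7 RPKM with wt, 32.3 with S473A and 25.6 with S473D, which does not separate endogenous from re-expressed transcript. The 7 markers of the basal, mesenchymal state, such as VIM and AXL, were all present (summed level 1383, 1381 and 1184 RPKM). Of 7 luminal and epithelial markers, 4, including ESR1 and CDH1, were under 1 RPKM in every library, and so were all 5 endothelial markers.

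RELA and NFKBIA were the most abundant of the 10 genes in wt and S473A. In wt RELA stood at 39.5 RPKM (interval 38.0 to 41.0) and NFKBIA at 37.6 (35.7 to 39.6), intervals that overlap. NFKB2 (19.7) and BCL2A1 (19.1) followed and overlapped too, then TNFAIP3 (12.9) and NFKB1 (11.6). BIRC3 (8.0), BCL3 (7.47), RELB (6.78) and NFKBIE (5.69) were lowest, each overlapping its neighbour. The order in S473A was the same apart from an exchange of BCL3 (7.31) and BIRC3 (7.18), whose intervals overlapped. In S473D the order changed at both ends. BCL2A1 moved from the fourth place to the first, at 36.6 RPKM (34.3 to 39.1), clear of NFKBIA (30.3) and RELA (29.6). BCL3 moved to the last place, at 3.31 RPKM (2.82 to 3.87), below RELB (5.03). The estimated reads behind a value ranged from 160 for BCL3 in S473D to 3001 for RELA in S473A.

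**Figure D1:**
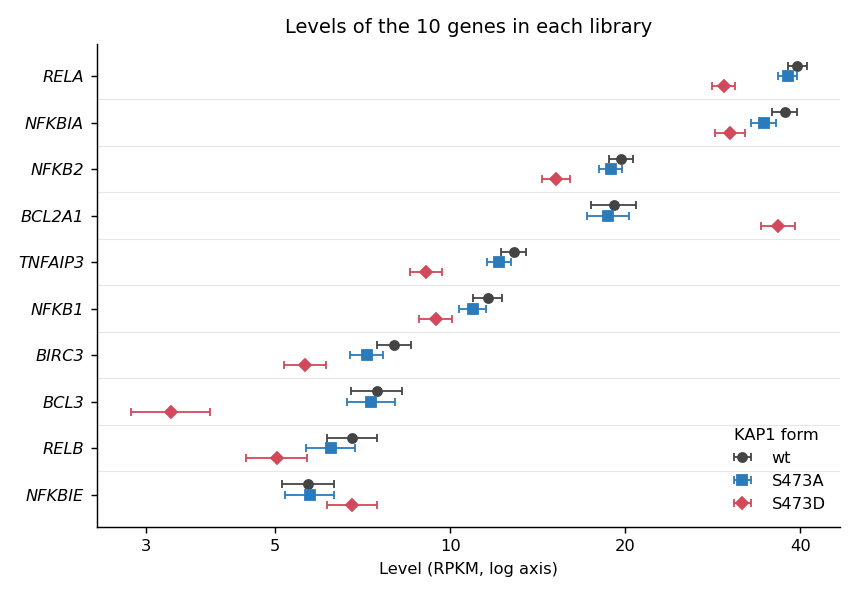
Levels of the 10 genes in the wt, S473A and S473D libraries (RPKM, log axis), 1 point per library, with bars for the exact 95% interval of counting error. The wt and S473A points lie close together, while in S473D BCL2A1 is higher at 36.6 RPKM and BCL3 lower at 3.31 RPKM.

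The start regions of 5 genes that NF-kB is known to induce are shown, to mark where the binding motif of NF-kB lies in them, if at all. RefSeq windows of 300 bases (build GRCh38.p14, 250 bases before and 50 after a transcript start) were found for 8 of the 10 genes, and RELB and NFKBIE are named only. At least 1 match to the NF-kB consensus decamer, searched on both strands, lay in 7 of the 12 windows of these genes, which belong to 6 of the 8, and 5.91% of all 35116 windows hold one. Sequences run 5′ to 3′ on the gene's strand, and capitals mark the decamers. The NFKBIA window is chr14:35404700-35404999 (minus strand), TNFAIP3 chr6:137867009-137867308 (plus), BIRC3 chr11:102317234-102317533 (plus), BCL3 chr19:44748458-44748757 (plus) and BCL2A1 chr15:79971147-79971446 (minus).
NFKBIA: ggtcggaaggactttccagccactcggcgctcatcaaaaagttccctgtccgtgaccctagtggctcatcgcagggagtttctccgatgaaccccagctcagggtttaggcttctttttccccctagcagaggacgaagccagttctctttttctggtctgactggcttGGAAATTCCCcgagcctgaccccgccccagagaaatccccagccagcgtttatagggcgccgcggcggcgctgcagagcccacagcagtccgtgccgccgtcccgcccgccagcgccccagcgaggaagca
TNFAIP3: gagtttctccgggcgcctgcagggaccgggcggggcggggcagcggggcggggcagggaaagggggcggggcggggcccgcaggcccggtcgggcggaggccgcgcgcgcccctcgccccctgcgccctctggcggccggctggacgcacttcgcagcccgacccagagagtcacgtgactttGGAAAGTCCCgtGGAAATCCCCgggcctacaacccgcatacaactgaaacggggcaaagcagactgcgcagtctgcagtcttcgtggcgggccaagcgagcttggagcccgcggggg
BIRC3: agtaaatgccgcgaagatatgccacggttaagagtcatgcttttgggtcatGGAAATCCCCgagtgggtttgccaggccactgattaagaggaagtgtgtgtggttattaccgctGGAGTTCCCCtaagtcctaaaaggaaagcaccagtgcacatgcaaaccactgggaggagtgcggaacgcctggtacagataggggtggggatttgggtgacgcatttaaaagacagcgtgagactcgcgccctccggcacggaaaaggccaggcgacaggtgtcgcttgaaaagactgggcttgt
BCL3: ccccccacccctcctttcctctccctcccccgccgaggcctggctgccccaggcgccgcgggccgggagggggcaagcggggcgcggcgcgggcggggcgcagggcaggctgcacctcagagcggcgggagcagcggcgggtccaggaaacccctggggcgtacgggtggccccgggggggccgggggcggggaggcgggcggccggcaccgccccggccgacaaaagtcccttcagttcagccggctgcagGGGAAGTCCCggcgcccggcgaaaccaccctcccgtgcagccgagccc
BCL2A1: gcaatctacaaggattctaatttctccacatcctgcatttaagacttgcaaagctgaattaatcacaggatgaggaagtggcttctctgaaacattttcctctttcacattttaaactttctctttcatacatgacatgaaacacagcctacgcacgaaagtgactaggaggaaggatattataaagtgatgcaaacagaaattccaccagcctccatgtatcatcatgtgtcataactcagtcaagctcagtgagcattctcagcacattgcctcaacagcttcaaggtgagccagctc

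NFKBIA had 1 decamer, GGAAATTCCC, beginning 81 bases before the start. TNFAIP3 had a pair, beginning 67 and 55 bases before it, and BIRC3 a pair further out, at 199 and 135 bases. In BCL3 the decamer GGGAAGTCCC began at base 3 of the transcript. The NFKB1 window held GGGAATTTCC 49 bases before 1 of its 2 starts. NFKB2 had matches at 2 of its 3 starts. One start had GGGAATTCCC at 107 bases before it, overlapped by GGAATTCCCC at 106, and GGGGCTTTCC at 78, and another had GGGGCTTCCC at 176 and GGGACTTTCC at 21. The windows of BCL2A1 and RELA held no match. In GC content the printed windows ran from 41% in BCL2A1 to 80% in BCL3. The GC box GGGCGG, in 45.0% of all windows, occurred 4 times in BCL3 and 6 times in TNFAIP3 but not in BIRC3 or BCL2A1. BCL2A1 held TATAAA (11.5% of windows) 70 bases before its start. NFKBIA held it on the opposite strand, as TTTATA, from 33 bases before its start. No window of the 8 genes held the AP-1 motif TGANTCA (7.71%). Both strands were searched, and matches of different motifs did not overlap. A match describes letters in these windows and no binding was measured.

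The subunit genes were all lower in S473D than in wt and kept nearly the same proportions to each other. RELA, whose product carries the main activation domain of the canonical dimer, stood at 39.5 RPKM with wt, 38.0 with S473A and 29.6 with S473D. The S473D library was the low one, with an interval clear of the others, and RELA was 1.34-fold higher in wt than there (interval 1.26 to 1.42, log2 difference -0.41). NFKB1, which encodes p105 and p50, stood at 11.6, 10.9 and 9.43 RPKM, and was 1.23-fold higher in wt than in S473D (1.13 to 1.34). NFKB2, which encodes p100 and p52 of the noncanonical branch, stood at 19.7, 18.9 and 15.2 RPKM and was 1.29-fold higher in wt (1.20 to 1.39). In both genes S473D was again lowest, outside the intervals of the other libraries. RELB, the partner of p52, stood at 6.78 RPKM with wt, 6.23 with S473A and 5.03 with S473D, 1.35-fold higher in wt (1.15 to 1.58). Its intervals in S473A and S473D overlapped slightly.

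With REL, which encodes c-Rel and stood at 2.48, 2.61 and 1.88 RPKM, the 5 Rel genes summed to 80.0 RPKM with wt, 76.7 with S473A and 61.1 with S473D. RELA made up 49.4%, 49.6% and 48.4% of that sum, NFKB2 24.6%, 24.6% and 24.9%, and NFKB1 14.5%, 14.3% and 15.4%. The ratio of NFKB2 to NFKB1 was 1.69 with wt (1.57 to 1.83), 1.73 with S473A (1.61 to 1.85) and 1.61 with S473D (1.48 to 1.76). RELB to RELA was 0.172, 0.164 and 0.170. From wt to S473D the sum was thus lower, at 61.1 against 80.0 RPKM, while these shares differed by less in proportion. The median difference of all genes was -0.10 in that comparison.

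In RPKM the IkB genes NFKBIA and NFKBIE differed in opposite directions between S473D and wt. NFKBIA, whose product IkBα is the fast feedback inhibitor of NF-kB, stood at 37.6 RPKM with wt, 34.6 with S473A and 30.3 with S473D. Its S473D interval lay below that of wt and of S473A, and it was 1.24-fold higher in wt than in S473D (1.15 to 1.34, log2 difference -0.30). NFKBIE, which encodes IkBε, stood at 5.69, 5.73 and 6.78 RPKM and its S473D level was 1.19-fold that of wt (1.03 to 1.37, log2 difference 0.22). Although the interval of the ratio excluded 1, the intervals of the levels overlapped. Summed RPKM over the table was 330667 with wt and 393381 with S473D, and scaling to equal sums was not tried. The ratio of NFKBIE to NFKBIA was 0.151 with wt (0.135 to 0.170), 0.165 with S473A (0.148 to 0.184) and 0.224 with S473D (0.20 to 0.251). NFKBIA stayed close to its target subunit, with an NFKBIA to RELA ratio of 0.951 with wt, 0.910 with S473A and 1.02 with S473D, all with overlapping intervals.

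BCL3 had the lowest difference of the 10 genes. It encodes a nuclear IkB protein that binds p50 and p52 dimers and can turn them into activators. BCL3 stood at 7.47 RPKM with wt, 7.31 with S473A and 3.31 with S473D. The first 2 libraries overlapped and S473D lay far below both. The level in wt was 2.26-fold that in S473D (1.87 to 2.73), a log2 difference of -0.98, the 16th lowest of the 11579 genes. With the dependence on transcript length and on GC content taken out by smooth curves (trends removed), the difference was -0.92, 56th lowest of 11314 genes with a known transcript. Against its partner gene NFKB2 the ratio was 0.380 with wt, 0.388 with S473A and 0.217 with S473D (0.183 to 0.257).

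TNFAIP3 and BIRC3 encode ubiquitin-editing regulators of the pathway and were lower in S473D by similar amounts. TNFAIP3, whose product A20 takes apart the ubiquitin chains that carry the signal, stood at 12.9 RPKM with wt, 12.1 with S473A and 9.08 with S473D. The S473D value lay outside both other intervals, and TNFAIP3 was 1.42-fold higher in wt (1.31 to 1.53, log2 difference -0.46). BIRC3 encodes cIAP2, a ubiquitin ligase that carries survival signals from tumour necrosis factor receptors. It stood at 8.0, 7.18 and 5.63 RPKM and was 1.42-fold higher in wt than in S473D (1.28 to 1.58, log2 difference -0.44). BIRC2, its constitutive relative on the same stretch of chromosome 11, stood at 44.8, 40.4 and 42.5 RPKM. The ratio of BIRC3 to BIRC2 was 0.179 with wt, 0.178 with S473A and 0.132 with S473D (0.121 to 0.145).

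BCL2A1 had the highest difference of the 10 genes. It encodes BFL1, a survival protein of the BCL2 family that is best known from blood cells. BCL2A1 stood at 19.1 RPKM with wt, 18.7 with S473A and 36.6 with S473D. The wt and S473A values overlapped and S473D stood apart, 1.92-fold higher than wt (1.72 to 2.14, log2 difference 0.90), the 196th highest of 11579 genes. With the trends removed it was at 0.22, the 1526th highest of 11314, below NFKBIE (0.31) and no longer 1.5-fold apart. Among the transcripts of the 5 survival genes BCL2A1, BCL2, BCL2L1, BCL2L2 and MCL1 it took 5.28% of summed RPKM with wt, 5.17% with S473A and 12.3% with S473D. MCL1 had the largest part of that sum, at 205 RPKM with wt, 206 with S473A and 141 with S473D. Of 6 measured blood cell markers 5 were under 1 RPKM in every library, among them PTPRC, listed at 0 in S473A and S473D. All 6 summed to 1.65, 1.64 and 1.62 RPKM, of which LCP1, which is not limited to blood cells in tumours, made up 1.38, 1.35 and 1.54 RPKM.

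**Figure D2:**
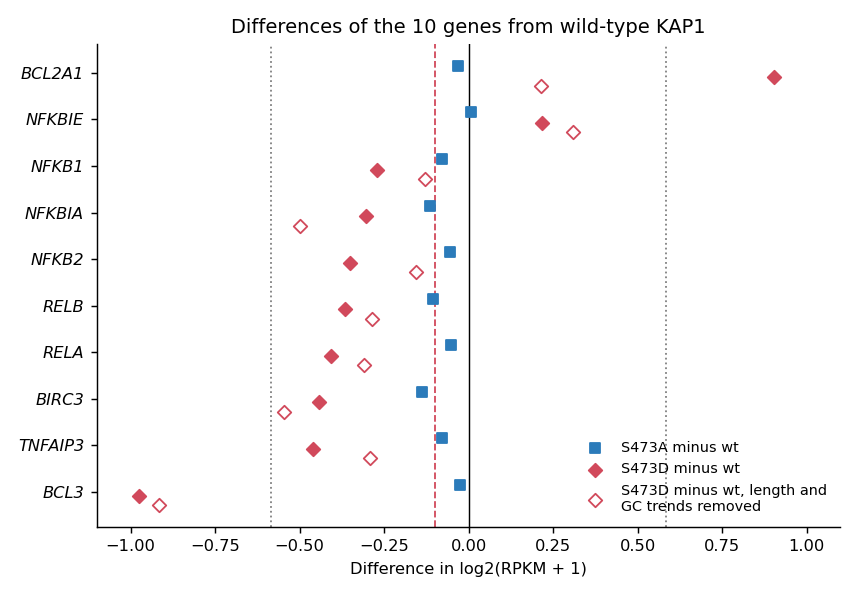
Differences of the 10 genes in log2(RPKM + 1), as S473A minus wt (squares), S473D minus wt (filled diamonds) and S473D minus wt with length and GC trends removed (open diamonds). Dotted lines mark 1.5-fold and the dashed line the median of all genes for S473D minus wt, -0.10. BCL3 stays at -0.92 with the trends removed, while BCL2A1 goes from 0.90 to 0.22.

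By a fixed size of 1.5-fold in RPKM + 1, 1 of the 10 genes, BCL2A1, was higher in S473D than in wt, where 6.82% of all genes were. Another 1 of 10, BCL3, was lower, where 3.23% of all genes were. With 10 genes such counts are close to those shares and say little about the list. Counts for the lists below also use RPKM + 1. That scale leaves out some weakly expressed genes that pass 1.5-fold in RPKM. The 10 genes had a median of -0.36 against -0.10 for all genes, and 8 of 10 were below 0 against 60.7% of all genes. All 10 ratios had a counting interval that excluded 1, as did 72.1% of the 11314 genes with a known transcript. With all differences centred on their median, or the libraries put on a common scale by trimmed log ratios (a shift of 0.11 for S473D), the same 8 genes remained below 0. Centred, the difference was -0.31 for RELA, -0.17 for NFKB1, -0.20 for NFKBIA, -0.88 for BCL3 and 1.0 for BCL2A1. Over all genes the split for S473D minus wt was 790 higher and 374 lower, 1106 and 128 after centring, 1118 and 139 after scaling, and 199 and 375 with the trends removed.

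Transcript length ran along with the differences in S473D and bears on single genes of the list. Across 11314 genes in these libraries the difference S473D minus wt had a Pearson correlation of -0.46 with log2 length, a description since genes are not replicates. The shortest 10% of transcripts, up to 1294 bases, had a median of 0.38 and the longest 10% one of -0.27. S473A minus wt showed -0.01 by the same measure. BCL2A1 has the shortest transcript of the 10 genes, 1033 bases with 39.9% GC. The smooth trend, a deviation from the median of all genes, had a value of 0.69 at that length and GC content. Removing it left the 0.22 given above, to be read beside a median of -0.10 for all genes. BIRC3 (4342 bases, 38.8% GC) and NFKBIA (1558 bases) went the other way, to -0.55 and -0.50. At their length and GC content the trend lay 0.11 and 0.20 above the median of all genes. RELA (-0.31), RELB (-0.29) and TNFAIP3 (-0.29) kept most of their difference and NFKB1 (-0.13) and NFKB2 (-0.16) came near the median of all genes, -0.10. NFKBIE was at 0.31. Whether the trend came from the cells or from the library was not tested.

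**Figure D3:**
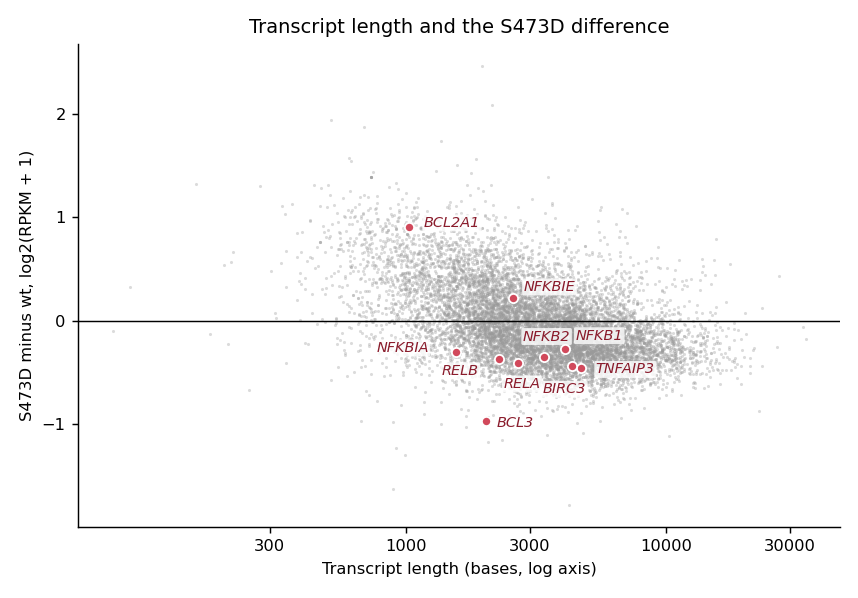
Transcript length (bases, log axis) against S473D minus wt in log2(RPKM + 1), with 1 grey dot for each of 11314 genes and the 10 genes in red. Short transcripts lie above 0 more often than long ones, and BCL2A1 at 1033 bases lies among them, while BCL3 at 2038 bases lies at -0.98.

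In S473A the same genes stayed close to wt. None of the 10 was 1.5-fold apart from wt in either direction, and 0.242% of all genes were. The largest difference was that of BIRC3, -0.14 (8.0 against 7.18 RPKM, 1.11-fold higher in wt, interval 1.02 to 1.22), followed by NFKBIA at -0.12 (1.09-fold, 1.01 to 1.17) and RELB at -0.11. BIRC3 and NFKBIA were the only genes of the 10 whose interval excluded 1, a count near the 15.1% of all genes with a known transcript. In all, 9 of the 10 were below 0, with a median of -0.07, where 50.2% of all genes were below 0 and the median was 0.00. NFKBIE was the exception at 0.01, and with the trends removed it was at -0.0017. BCL3 (-0.03) and BCL2A1 (-0.03), which stood furthest from wt in S473D, were near it in S473A.

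Set against S473A, the S473D library gave similar values, though both comparisons share the S473D library. BCL2A1 was 1.96-fold higher in S473D than in S473A (1.76 to 2.18, log2 difference 0.94), where 6.86% of all genes were at least 1.5-fold higher. BCL3 was 2.21-fold higher in S473A (1.84 to 2.66, -0.95), where 3% of genes were at least 1.5-fold lower in S473D. None of the other 8 genes passed 1.5-fold. TNFAIP3 was at -0.38, RELA at -0.35, BIRC3 at -0.30, NFKB2 at -0.29, RELB at -0.26, NFKB1 and NFKBIA at -0.19 and NFKBIE at 0.21. The median of the 10 genes was -0.28 against -0.10 for all genes. With the trends removed BCL3 was at -0.86 and BCL2A1 at 0.23, and the median of the 10 genes was -0.19.

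**Figure D4:**
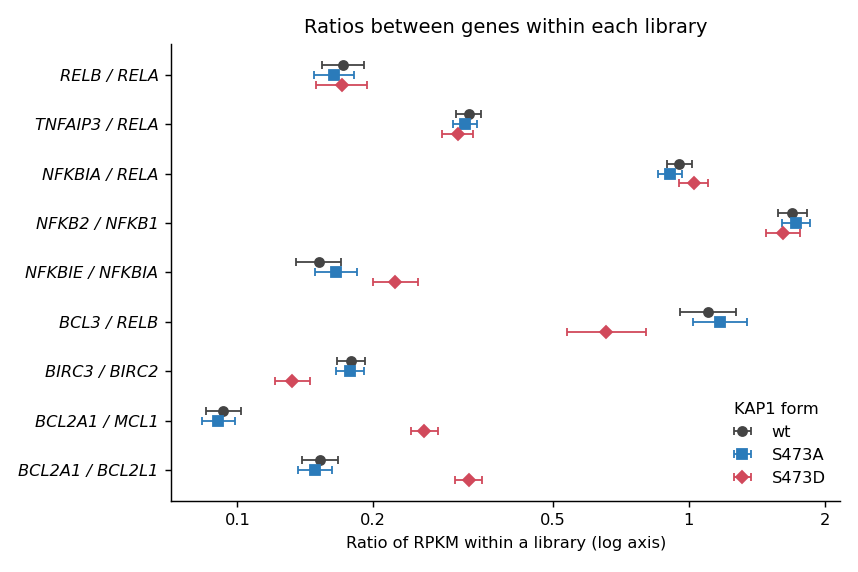
Ratios of RPKM between pairs of genes within each library (log axis), with bars for the exact 95% interval of counting error. RELB, TNFAIP3 and NFKBIA keep overlapping ratios to RELA in all 3 libraries, while BCL3 to RELB is lower and BCL2A1 to MCL1 and BCL2L1 higher in S473D. Pairs of unequal transcript length also carry the length trend.

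The other genes of the pathway, from textbook lists, were mostly lower in S473D than in wt by less than 1.5-fold in RPKM + 1. So were most genes of the whole set, with 60.7% below 0 and a median of -0.10. Of all genes 6.82% were at least 1.5-fold higher and 3.23% lower. Of the 4 other Rel and IkB genes with at least 1 RPKM, none was 1.5-fold apart and the median was -0.21. NFKBIZ, which encodes the inducible nuclear protein IkBζ, led them at -0.51 (12.9 RPKM with wt, 12.5 with S473A and 8.74 with S473D). REL was at -0.27, NFKBIB at -0.16 and NFKBIL1 at -0.05.

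Of 13 receptors 1 was 1.5-fold higher and none lower, beside 6.82% and 3.23% of all genes (median -0.19, or -0.17 with the trends removed). The higher one was LY96, which encodes the TLR4 partner MD-2, at 3.70 RPKM with wt, 5.12 with S473A and 12.9 with S473D (1.57, or 0.52 with the trends removed). TNFRSF12A, the receptor gene for TWEAK, was at 0.42, TNFRSF21 at -0.57 and TNFRSF1A, the main receptor gene for tumour necrosis factor, at -0.44 (38.2, 39.0 and 27.95 RPKM). The TLR4 gene itself stood at 2.16, 2.08 and 2.44 RPKM. CD14, the co-receptor gene of blood cells, was at or under 0.175 RPKM in each library.

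The median of 35 kinases, adaptors and ubiquitin ligases was -0.17, or -0.10 with the trends removed, the same as all genes. Of these 35, 1 was 1.5-fold higher and none lower, beside 6.82% and 3.23% of all genes. UBE2N, which encodes the enzyme that builds the chains A20 removes, was that gene at 0.64 (81.6 RPKM with wt, 77.7 with S473A, 128 with S473D), and it has a near-identical retrocopy with which reads can be shared. TBK1, a kinase gene related to the IkB kinases, was at 0.57. IRAK2 (-0.50) and IRAK1 (-0.46), kinase genes of the interleukin-1 receptor, were lowest. The core IkB kinase genes CHUK, IKBKB and IKBKG were at 0.23, -0.17 and 0.14.

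Of 16 other negative regulators 1 was 1.5-fold lower and none higher, beside 3.23% and 6.82% of all genes (median -0.17, trends removed -0.11). TNIP1, the gene for an A20 partner, was that one, at 64.7 RPKM with wt, 61.9 with S473A and 42.4 with S473D (-0.60, or -0.47 with the trends removed). Another A20 partner gene, TAX1BP1, was at 0.43, COMMD1 at 0.42 and TNIP3 at -0.40. The deubiquitinase gene CYLD was near wt at -0.01.

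NF-kB target genes outside the 10 went in both directions in S473D. In 3 target lists with 46 genes of at least 1 RPKM, 4 were 1.5-fold higher and 8 lower, beside 6.82% and 3.23% of all genes (median -0.13 against -0.10 for all genes). Of 8 survival targets GADD45B was higher (25.7 RPKM in wt, 40.6 in S473D, 0.64), FTH1, which has many processed pseudogenes, was at -0.53, SOD2 at -0.37 and CFLAR at 0.00. Among 22 adhesion, enzyme and transcription factor targets 1 was higher and 6 lower (median -0.13). B2M, the light chain gene of class I antigen presentation, stood at 333, 321 and 690 RPKM (1.05, or 0.30 with the trends removed) and STAT5A was at 0.55. The gelatinase gene MMP9 (2.70, 2.64 and 0.660 RPKM) was at -1.16 and the acute phase gene SAA1 (3.41, 1.89 and 1.25) at -0.97.

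The 16 cytokine targets split evenly past that size, 2 higher and 2 lower (median -0.20), beside 6.82% and 3.23% of all genes. IL1A stood at 10.6, 10.1 and 19.3 RPKM (0.80) and CCL20 at 1.94, 1.21 and 4.01 (0.77, but -0.13 with the trends removed). LTB, which encodes lymphotoxin beta, stood at 3.92 RPKM with wt, 1.72 with S473A and 0.588 with S473D (-1.63), and CSF1 at 13.4, 11.1 and 6.76 (-0.89). With the trends removed the median of the cytokine list was -0.51.

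**Figure D5:**
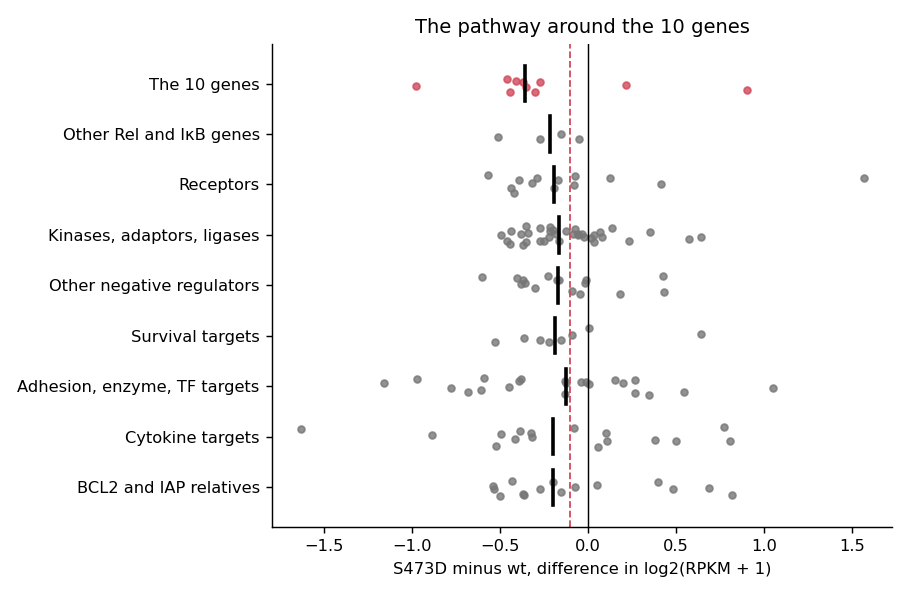
Differences S473D minus wt in log2(RPKM + 1) for the 10 genes (red) and for the genes of 8 pathway lists whose mean reached 1 RPKM (grey), with black bars for medians and a dashed line for the median of all genes, -0.10. The 10 genes have a median of -0.36, and the medians of the other lists lie between -0.21 and -0.13, each with genes on both sides of 0 except the other Rel and IkB genes.

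The relatives of BCL2A1 and BIRC3 showed which survival and death genes stood near them. Of 15 BCL2 family and IAP genes 2 were 1.5-fold higher in S473D in RPKM + 1 and none lower (median -0.20). Over all genes these shares were 6.82% and 3.23%. BID, a death gene whose product is bound by BFL1, stood at 8.97 RPKM with wt, 10.1 with S473A and 16.6 with S473D (0.82, or 0.78 with the trends removed). PMAIP1, which encodes NOXA, a BH3-only protein that binds BFL1 and MCL1, stood at 14.5, 13.7 and 23.9 RPKM (0.69, or 0.24). MCL1 was at -0.54 and BCL2L11, which encodes BIM, at -0.53. In RPKM alone BCL2L11 was 1.59-fold higher in wt than in S473D (1.40 to 1.81). BCL2, at 2.21 RPKM with wt and 1.28 with S473D, was 1.73-fold higher in wt (1.47 to 2.05).

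Over the 3 libraries the genes nearest to BCL2A1 and BCL3 were sought among 8186 genes whose mean reached 5 RPKM, by the distance between their pairs of differences from wt. Nearest to BCL2A1 were GGH (26.5, 25.9 and 50.6 RPKM), the proteasome gene PSMC6 (44.3, 43.5 and 83.9) and the mitochondrial peptidase gene IMMP1L (6.90, 6.74 and 13.9), at distances of 0.0053, 0.0079 and 0.0090. Their transcripts are 1607, 1590 and 795 bases long. Nearest to BCL3 were CAMK2N2 (13.1, 12.8 and 6.09 RPKM, distance 0.021), the pseudogene MSTO2P (11.5, 11.2 and 5.10, distance 0.054), which resembles MSTO1, and the adaptor gene NCK2 (19.7, 19.2 and 9.93, distance 0.054). With 3 points per gene, such likeness describes these libraries alone.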

How the data were processed

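RNA of 3 libraries, 1 per form of KAP1, was placed in groups by title. Bowtie, Partek and build hg19 are named per the submitters' processing notes. Versions, gene annotation, counting rule and use of strand: not given in the sources used here. Values in the deposited table are log2 of RPKM. Its lowest value is -3.32, the log2 of 0.1, so the authors' values were read as RPKM plus 0.1 and turned back to RPKM. Of 19076 lines 27 with repeated or date-like symbols were left out, as were 169 short RNAs.

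Depth was estimated from low values that fall on whole reads, using GENCODE release 29 transcript lengths (GRCh38, lengths and GC content only). Between 44.1% and 46.4% of low values came out whole within 2%, so no count model was fitted to test differences. The counting intervals treat estimated reads as counts, so their widths carry the uncertainty of these lengths and depths. Lowess trends (statsmodels 0.14.6, fraction 0.2, 2 rounds) on length and GC content, fitted to 11314 genes, kept the overall median. Code was tested on simulated data.

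The members and gene lists were chosen with earlier results of these data known. By rule the text names the 10 genes, TRIM28, up to 2 highest and 2 lowest genes of each list by S473D minus wt, and 3 genes nearest in pattern to the members with the highest and lowest difference; other genes were named after their values were seen. The alternatives tried were a pseudocount of 0.1 or 0.5, dropping the filter or raising it to 5 RPKM, centring, trimmed-mean scaling, trend removal and a 2-fold size.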

Additional observations from a re-analysis of the deposited data

How the results depend on the processing

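The count of the 10 genes at least 1.5-fold apart was 0 for S473A minus wt under every alternative. For S473D minus wt and for S473D minus S473A it was 2 under 6 alternatives. It was 1 with the length and GC trends removed, where BCL2A1 no longer passed, and 0 with a 2-fold size in RPKM + 1. In RPKM alone BCL3 was 2.26-fold higher in wt and 2.21-fold higher in S473A than in S473D. The sign of each of the 10 genes was kept in all 3 comparisons under the 7 alternatives that recompute differences, except NFKBIE in S473A minus wt with the trends removed. CCL20 reversed for S473D minus wt with the trends removed, to -0.13, by the construction of that step. Over all genes, S473A minus wt had 11 higher and 17 lower, against 31 and 35 with a pseudocount of 0.1 and 4 and 5 where the mean reached 5 RPKM. For S473D minus S473A, 794 were higher and 347 lower, against 941 and 781 with a pseudocount of 0.1, 193 and 392 with the trends removed, 1132 and 130 after centring and 1147 and 139 after scaling. No paired analysis was possible because each group has 1 library, and for the same reason no replicate could be left out. Among the 10 genes depth limits BCL3 in S473D most, at an estimated 160 reads. Other named genes rest on fewer, such as LTB with 13 in S473D and APOC1 with 15 in wt.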

Other observations

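Genes that lie beside BIRC3 and BCL3 on their chromosomes were also read. At 11q22, around BIRC3, the collagenase gene MMP1 (279 RPKM with wt, 191 with S473A, 1541 with S473D) and the stromelysin gene MMP3 (4.75, 3.48 and 11.8) were higher in S473D than in wt, by 2.46 and 1.16 on the log2 scale. On the other side of BIRC3, YAP1 was at -0.51 (52.5, 52.0 and 36.7 RPKM). BIRC2, the relative of BIRC3, was at -0.07. MMP8, MMP10, MMP12 and MMP13 were under 1 RPKM in every library. At 19q13, around BCL3 and RELB, 10 genes with at least 1 RPKM had a median of -0.32 in S473D minus wt. BCL3 itself was at -0.98 and RELB at -0.37. None of these neighbours was 1.5-fold apart in RPKM + 1, where 6.82% of all genes were higher and 3.23% lower by that size. In RPKM alone BCAM was 1.69-fold higher in wt than in S473D (1.41 to 2.03), and APOC1 1.93-fold higher in S473D. BCAM (3.89, 5.09 and 2.31 RPKM) was lowest at -0.56, CLPTM1 was at -0.50, GEMIN7 at 0.31 and APOC1, at 0.841, 1.103 and 1.62 RPKM, at 0.51. The APOC1 ratio of S473D to wt had a counting interval of 0.95 to 3.78, which includes 1. With the trends removed APOC1 was at -0.03. The 7 basal markers had a median of -0.39 in S473D minus wt, with 6 of 7 below 0, against -0.36 for the 10 NF-kB genes, and their part in those differences was not tested.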
